A study of Mus musculus with 11 samples.

Results

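The 4 Hox gene clusters of the mouse genome were followed through maps of histone H3 methylation in heart muscle cells at birth and in the adult. Each cluster was defined as a window of the mm9 genome build: chr6:52100000-52260000 for Hoxa (160 kb), chr11:96050000-96235000 for Hoxb (185 kb), chr15:102745000-102875000 for Hoxc (130 kb) and chr2:74495000-74610000 for Hoxd (115 kb). Every enriched stretch called by the program SICER (an island) and every row of the authors' comparison tables that overlapped a window by at least 1 bp was taken, which gave 493 of 395238 regions. Of these, 407 of 272485 were islands and 86 of 122753 were table rows. Chromatin immunoprecipitation followed by sequencing had been done for H3K27me3, H3K4me3, H3K9me3 and H3K79me2 in cardiomyocytes of mice aged 1 day (neonatal) and in left ventricle cardiomyocytes of mice aged 2 months (adult). No strain, treatment or transgene is named in the labels. The labels give no heart region for the neonatal cells, so age and region cannot be told apart. Each mark had 1 library per stage, the labels do not say how many animals stand behind a library, and no stage difference therefore has a replicate check. The purity of the cells was not checked against marker genes, which needs gene positions in mm9. Island lists of mouse embryonic stem (mES) cells, deposited beside them, served as a further cell type. They were called on reads of other series, so cell type and source of the data cannot be told apart in any comparison with mES cells.

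Hox genes encode homeodomain transcription factors that give cells their position along the body axis, and they lie in their clusters in the order in which they are used along that axis. Where they are silent, Polycomb repressive complex 2 places H3K27me3 over whole stretches of a cluster, while Trithorax-related enzymes place H3K4me3 at active or poised promoters. A promoter that carries both marks is called bivalent, a state described first in stem cells. H3K9me3 is a mark of heterochromatin and H3K79me2 lies over the first part of transcribed genes. In the heart, Hoxb1 and Hoxa3 are known from progenitors of the second heart field in the embryo, and Hox genes of higher number act in the trunk, limbs and genital tract.

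RefSeq (GRCm38.p6) lists 39 protein-coding Hox genes in these clusters, 11 in Hoxa, 10 in Hoxb, 9 in Hoxc and 9 in Hoxd. In rising chromosome coordinates Hoxa ends with Hoxa13, while Hoxb runs from Hoxb13 through Hoxb9 to Hoxb1, Hoxc from Hoxc13 to Hoxc4 and Hoxd from Hoxd13 to Hoxd1. The islands are in mm9, so no island was assigned to a single gene. Cluster ends are shown by 5 promoters, because the marks described here are known to meet at promoters rich in CG. The 5 sequences give 250 bases before and 50 after the gene's start in GRCm38.p6, 5′ to 3′ on the gene's strand, with every CG in capitals. Hoxb13 and Hoxc13 also stand at cluster ends.
Hoxa13, chr6:52260831-52261130, minus strand: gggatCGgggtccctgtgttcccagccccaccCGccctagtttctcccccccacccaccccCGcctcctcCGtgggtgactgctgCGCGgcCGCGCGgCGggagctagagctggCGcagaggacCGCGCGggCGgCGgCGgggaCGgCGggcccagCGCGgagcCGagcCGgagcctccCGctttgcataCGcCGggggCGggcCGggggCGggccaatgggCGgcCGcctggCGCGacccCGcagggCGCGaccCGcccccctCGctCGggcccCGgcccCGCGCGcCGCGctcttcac
Hoxb1, chr11:96365508-96365807, plus strand: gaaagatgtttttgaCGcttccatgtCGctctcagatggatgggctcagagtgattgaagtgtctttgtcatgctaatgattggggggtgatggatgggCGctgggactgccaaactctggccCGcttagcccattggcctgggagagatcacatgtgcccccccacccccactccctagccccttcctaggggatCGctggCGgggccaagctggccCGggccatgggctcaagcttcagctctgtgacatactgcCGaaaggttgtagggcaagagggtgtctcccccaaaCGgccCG
Hoxc4, chr15:103034145-103034444, plus strand: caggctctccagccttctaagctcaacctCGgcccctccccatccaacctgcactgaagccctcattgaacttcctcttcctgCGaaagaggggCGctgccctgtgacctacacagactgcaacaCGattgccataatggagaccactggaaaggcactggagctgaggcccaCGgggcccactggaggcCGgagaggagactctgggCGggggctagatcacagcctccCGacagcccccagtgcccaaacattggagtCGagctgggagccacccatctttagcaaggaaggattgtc
Hoxd13, chr2:74667975-74668274, plus strand: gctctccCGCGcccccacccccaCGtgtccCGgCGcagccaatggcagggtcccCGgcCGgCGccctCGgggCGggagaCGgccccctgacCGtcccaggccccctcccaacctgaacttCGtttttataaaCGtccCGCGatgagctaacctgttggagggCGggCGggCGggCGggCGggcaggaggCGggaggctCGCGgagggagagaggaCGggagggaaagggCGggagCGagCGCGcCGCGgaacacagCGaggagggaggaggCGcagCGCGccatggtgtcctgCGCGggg
Hoxd1, chr2:74762730-74763029, plus strand: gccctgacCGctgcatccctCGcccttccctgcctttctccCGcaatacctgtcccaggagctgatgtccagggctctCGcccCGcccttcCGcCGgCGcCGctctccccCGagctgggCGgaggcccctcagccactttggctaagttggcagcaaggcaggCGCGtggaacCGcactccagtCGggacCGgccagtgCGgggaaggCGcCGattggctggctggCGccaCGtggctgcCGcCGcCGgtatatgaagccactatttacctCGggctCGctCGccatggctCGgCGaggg
Hoxa13 and Hoxd13, which pattern the distal limb and the genital tract, had 45 and 37 CG in these 300 bases. Hoxd1 had 29. Hoxb1, a gene of hindbrain patterning, had 10 and Hoxc4, a gene of the anterior trunk, had 9. Over the 22 Hox genes matched by symbol there were 24 promoters with 4 to 45 CG and a median of 14.5, against a median of 7 over 32851 promoters of the same length. Of the 24, 20 lay above that overall median, as did 48.65% of all promoters. The word CG reads the same on both strands and was present in 94.6% of all promoters, so its number and not its presence differs.

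H3K27me3 lay over most of each cluster in the 3 cell types. Over the 590 kb of the 4 windows its islands covered 91.0% in mES cells (95% Wilson interval over units of 200 bp, 89.9 to 92.0), 81.4% in neonatal (79.9 to 82.8) and 73.7% in adult cardiomyocytes (72.1 to 75.3). These intervals treat the units as independent draws, which neighbouring units are not, and they do not measure variation between libraries. The order mES, neonatal, adult held in each of the 4 windows. Hoxc had the fullest cover, with 99.5% in mES, 89.5% in neonatal and 85.2% in adult cells. Hoxa followed in the cardiomyocytes, with 91.3%, 84.0% and 76.0%. Hoxd had 97.9%, 79.7% and 74.3%. Hoxb had the least, with 80.5%, 74.5% and 63.4%. The intervals of neonatal and adult cover overlap in Hoxc and Hoxd and not in Hoxa and Hoxb.

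**Figure D1:**
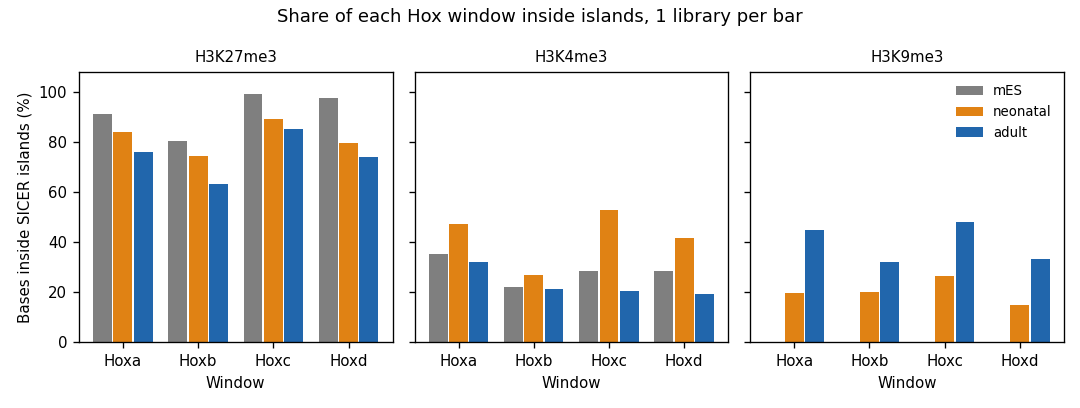
Percent of the bases of each Hox window inside SICER islands (vertical axis) for H3K27me3, H3K4me3 and H3K9me3, with 1 bar per island list for mES, neonatal and adult cells. H3K27me3 cover decreases from mES to adult in each window, H3K4me3 is highest in neonatal cells in each window, and H3K9me3 is 0 in mES cells and highest in the adult.

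The Hox islands were among the widest of their lists. In each of the 3 H3K27me3 lists 7 of the 25 widest islands lay in the windows, although these held 17 of 21880 mES, 41 of 13552 neonatal and 72 of 23721 adult islands. A single mES island of 137 kb, the widest of its list, spanned nearly the whole Hoxc window. In neonatal cells the widest island of the genome was one of 57.8 kb in Hoxb (chr11:96111400-96169199). In adult cells the widest Hox island measured 24.4 kb, lay in Hoxa (chr6:52154800-52179199) and was the fourth widest of its list. The widest adult islands of Hoxb, Hoxc and Hoxd measured 20, 18.6 and 20.8 kb, beside 57.8, 30.0 and 25.2 kb in neonatal cells.

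Much of the H3K27me3 domain was shared by the stages, as covers this high bring with them. Neonatal and adult H3K27me3 islands shared 401.8 kb, which is 83.7% of the neonatal and 92.4% of the adult bases, and 399.6 kb (67.7% of the windows) were covered in all 3 cell types. Of the 41 neonatal islands, 39 overlapped an adult island, against 43.4% of all neonatal islands, and wide islands have more room to overlap. Of the 72 adult islands, 70 overlapped a neonatal one, beside a share of 28.5% for the adult list as a whole. The islands numbered 17 in mES, 41 in neonatal and 72 in adult cells with a median width of 16.4, 8.2 and 4.5 kb in that order. Island medians over the whole lists stood in the same order, at 4.0, 2.8 and 1.8 kb.

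Most adult breaks were short. The smallest gap in each list was 800 bp. With islands joined across gaps of up to 1 kb there were 23 neonatal and 34 adult domains, with up to 2 kb 16 and 19, and with up to 3 kb 11 at both stages. The widest joined domain measured 105 kb in neonatal and 94.2 kb in adult cells at 1 kb, and 129.8 and 127.8 kb at 3 kb. At that setting the difference in number between the stages was gone. The H3K27me3 table reads of the windows, given further on, numbered 6834 in neonatal and 7242 in adult cells, and the part of read depth in the island number was not tested.

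**Figure D2:**
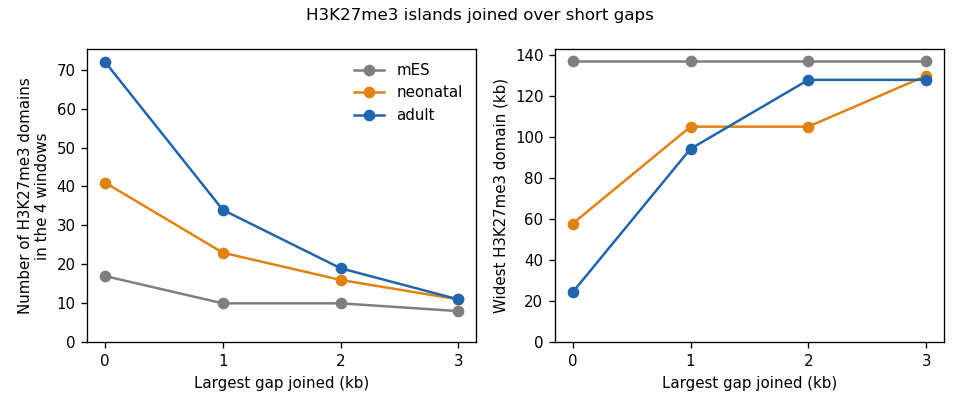
Number of H3K27me3 domains in the 4 windows (left) and width of the widest domain in kb (right) against the largest gap across which islands were joined, in kb, for mES, neonatal and adult cells. Without joining there are 17, 41 and 72 domains, and at 3 kb the neonatal and adult counts are both 11.

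Cover was uneven along the clusters. In Hoxb the islands left a stretch open between 29.8 and 46.0 kb from the low-coordinate end of the window in neonatal cells (chr11:96079800-96095999) and between 29.8 and 45.8 kb in mES cells. The adult stretch without islands was longer, from 27.2 to 62.4 kb (chr11:96077200-96112399, 35.2 kb), and 2 neonatal Hoxb islands inside it had no adult partner. Of the Hoxb window, 33.2 kb carried no H3K27me3 island in any of the 3 cell types, against 9.0 kb in Hoxa, 1.6 kb in Hoxd and 0 in Hoxc. Hoxb13 comes first in this cluster and is known to stand apart from Hoxb9, the next gene, and whether the stretch is that interval was not tested without mm9 gene positions.

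The Hoxa and Hoxd windows thinned toward their high-coordinate ends. In Hoxa the adult cover was 83% to 96% in the 20 kb bins up to 120 kb and 33% and 35% in the last 2 bins, where neonatal cells had 59% and 57%. The longest adult stretch without H3K27me3 in Hoxa ran over 12.0 kb (chr6:52228200-52240199), and the longest neonatal one over 8.6 kb (chr6:52246800-52255399). In Hoxd the last 15 kb had 36% cover at both stages and 89.3% in mES cells. In Hoxc no stretch without H3K27me3 was longer than 2.6 kb in neonatal and 3.8 kb in adult cells.

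**Figure D3:**
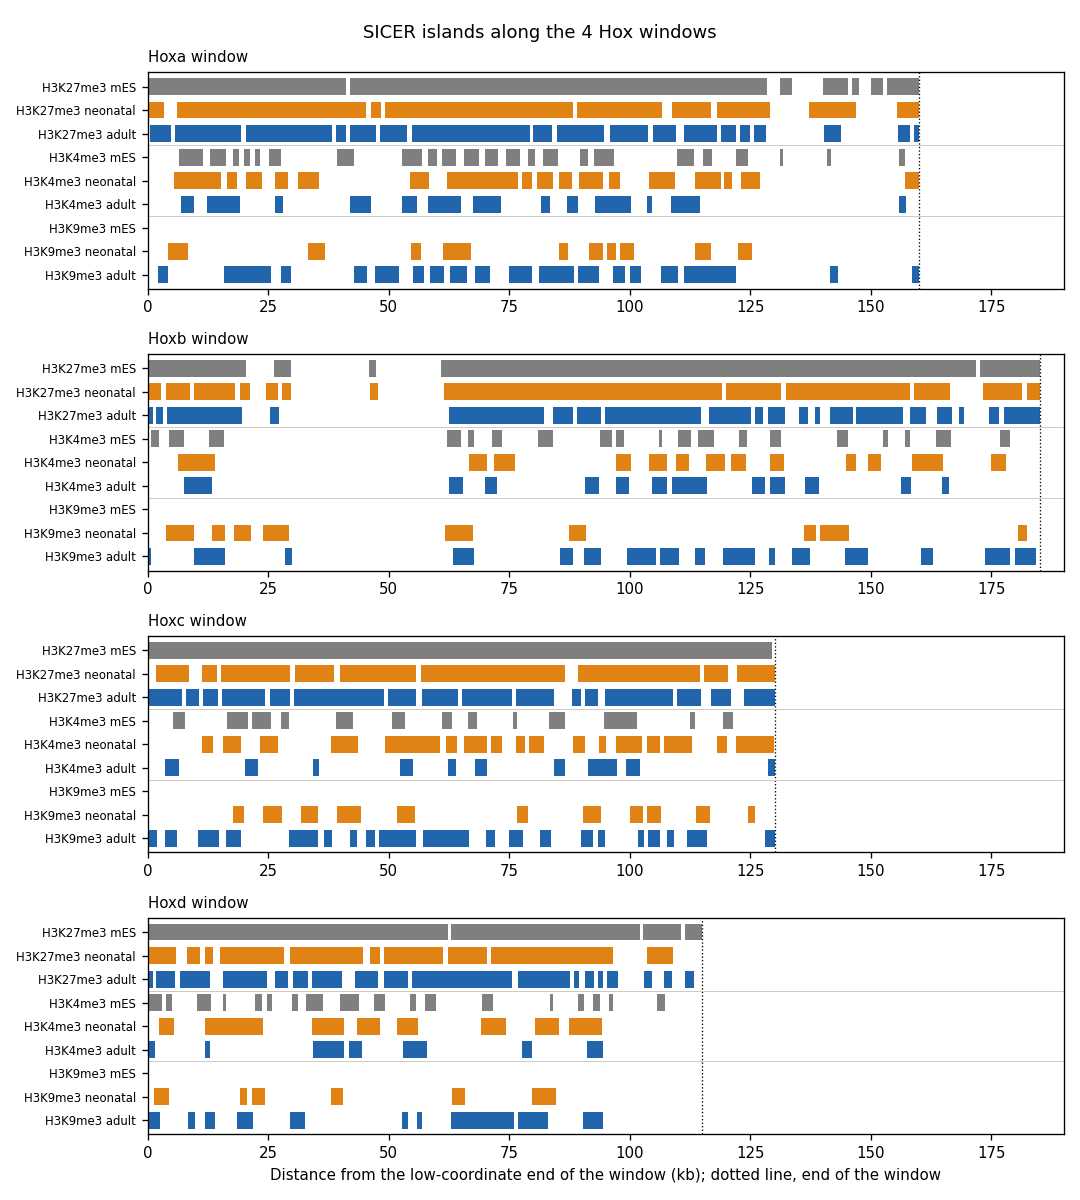
SICER islands along the 4 Hox windows, 1 row per mark and cell type, with the distance from the low-coordinate end of the window in kb on the horizontal axis. H3K27me3 forms nearly unbroken rows with an open stretch in Hoxb, H3K4me3 and H3K9me3 form separate islands mostly inside them, and the mES H3K9me3 rows are empty.

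H3K4me3 formed many short islands within this domain. It covered 28.4% of the windows in mES (26.8 to 30.1), 41.1% in neonatal (39.3 to 42.9) and 23.6% in adult cells (22.1 to 25.2). Neonatal cover was the highest of the 3 in each cluster. Between neonatal and adult cells it went from 53.1% to 20.5% in Hoxc and from 41.7% to 19.5% in Hoxd. In Hoxa it was 47.4% and 32.0%, and in Hoxb 26.8% and 21.2%, where the intervals of 24.1 to 29.8 and 18.7 to 23.9 just miss each other. The order of the clusters thus differed, with Hoxc first among neonatal and Hoxa first among adult values.

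The islands themselves were wider at birth. There were 73 mES, 55 neonatal and 42 adult H3K4me3 islands, with median widths of 2.2, 3.8 and 2.7 kb beside 2.0, 2.4 and 2.0 kb over the whole lists. The widest neonatal one measured 14.8 kb, lay in Hoxa (chr6:52162000-52176799) and ranked 29 of 21312 by width. Wide neonatal islands in Hoxd (12.2 kb, chr2:74506800-74518999) and Hoxc (11.4 kb, chr15:102794200-102805599) ranked 50 and 65. The widest adult island was one of 7.4 kb in Hoxa (chr6:52192800-52200199), which ranked 244 of 23957. In mES cells the widest was one of 6.8 kb in Hoxc and ranked 803 of 29888.

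Neonatal and adult H3K4me3 shared 75.4 kb, which is 31.1% of the neonatal and 54.1% of the adult bases. Of the 55 neonatal islands 32 overlapped an adult one, near the 64% of all neonatal H3K4me3 islands. The same count was 12 of 17 in Hoxa, 9 of 13 in Hoxb, 6 of 17 in Hoxc and 5 of 8 in Hoxd. Of the 42 adult islands 30 overlapped a neonatal one, beside 56.8% for the adult list as a whole. The neonatal share lies near that of the whole list. In the 20 kb bins of Hoxc between 40 and 80 kb neonatal H3K4me3 covered 72% and 64% and adult 13% and 22%. Between 80 and 100 kb the stages had 44% and 46%. From 100 to 120 kb they had 65% and 11%, and in the last 10 kb 80% and 14%, the largest gap of this window. Some bins of other clusters had more adult H3K4me3. Among them were 40 to 60 kb of Hoxa, with 20% and 46%, and 80 to 100 kb of Hoxb, with 14% and 28%. Only 40 kb (6.78% of the windows) carried H3K4me3 in all 3 cell types.

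Almost all H3K4me3 lay within H3K27me3. All 55 neonatal H3K4me3 islands overlapped an H3K27me3 island, against 13% of all neonatal H3K4me3 islands. In the adult 41 of 42 did, against 16.8%, and in mES cells all 73 did, against 30.3%. Counted by bases, 94.5% of the neonatal and 87.5% of the adult H3K4me3 lay inside H3K27me3, beside H3K27me3 covers of 81.4% and 73.7% of the windows. The shares of the whole lists are not matched for this high local cover. Both marks together covered 38.8% of the windows in neonatal and 20.7% in adult cells. Both marks were mapped in populations of cells, so 1 nucleosome carrying both and a mix of cells cannot be told apart. The open Hoxb stretch lacked H3K4me3 islands as well, from 14.0 to 66.6 kb in neonatal, from 13.4 to 62.4 kb in adult and from 15.8 to 62.0 kb in mES cells.

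Read values for the stages come from the authors' deposited tables, which keep regions whose false discovery rate between 2 libraries is under 0.01. The rate compares the reads of those libraries and not the ages. In the 4 windows the stage tables list 9 intervals, of which 4 appear for 4 marks, 4 for 3 marks and 1 for 2 marks. The reads given here are those that remain once the authors had subtracted the control, never below 1 read, and each library was multiplied by 1 factor. For H3K27me3 the neonatal and adult factors were 1.26 and 0.792, a ratio of 1.59, and for H3K4me3 1.30 and 0.771, a ratio of 1.68. One region elsewhere in the genome took 58.9% of the neonatal H3K27me3 table reads, and the part of that region in the factors was not tested.

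H3K27me3 reads were dense over the clusters at both stages and lower in the adult after scaling. All 9 Hox regions had a lower normalised adult value in the authors' deposited table, against 27.5% of its 5269 regions, with false discovery rates in that table from 1.95e-85 to 0.00539. Of the table, 59.3% stood at the floor in neonatal cells, and among the 1861 regions above the floor at both stages 62.7% were lower in the adult. Density was 5.94 to 13.0 reads per kb in neonatal and 5.83 to 12.9 in adult cells, above the table medians of 0.299 and 3.59.

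In Hoxa the region of 129.8 kb (chr6:52099200-52228999) held 1686 neonatal and 1649 adult reads, or 13.0 and 12.7 reads per kb. Its normalised value was 1.63-fold higher in neonatal cells (95% counting interval 1.52 to 1.74). The Hoxa region of 9.6 kb (chr6:52237200-52246799) was the sparsest, with 57 and 56 reads and a 1.62-fold higher neonatal value (1.101 to 2.39). The 23.6 kb region that crosses the end of the window beyond it (chr6:52253400-52276999) held 293 and 238 reads and had the largest difference of the 9, 1.96-fold (1.65 to 2.34). Its bounds are 153.4 and 177 kb from the low-coordinate end of a 160 kb window, so most of it lies outside. Before scaling the first 2 of these regions were equal within counting error and the 23.6 kb region was already lower in the adult.

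In Hoxb the 111 kb region (chr11:96110800-96221799), whose bounds are those of the mES island, held 1254 neonatal and 1432 adult reads. Its neonatal value was 1.39-fold higher (1.29 to 1.51). The 45.8 kb region on the other side of the open stretch (chr11:96024600-96070399) held 476 and 585 reads and had the smallest difference, 1.30-fold (1.15 to 1.47). Its bounds are -25.4 and 20.4 kb from the low-coordinate end of the window, so most of it lies outside. The 16.4 kb region at the high-coordinate end (chr11:96222600-96238999) held 158 and 133 reads and differed 1.89-fold (1.49 to 2.40). The end region thus differed more than the other 2 Hoxb regions, with an interval that does not overlap theirs only for the 45.8 kb region.

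In Hoxc a single region of 138 kb (chr15:102737400-102875399) held 1555 neonatal and 1738 adult reads and had a 1.43-fold higher neonatal value (1.33 to 1.53). In Hoxd the 112.2 kb region (chr2:74484800-74596999) held 1293 and 1345 reads and differed 1.53-fold (1.42 to 1.65). The 7.8 kb Hoxd region beyond it (chr2:74597800-74605599) held 62 and 66 reads and differed 1.496-fold (1.04 to 2.15). In these 3 regions, as in 2 of the 3 Hoxb regions, the adult library held more reads before scaling. Taken without the factors, 4 of the 9 regions were lower and 5 higher in the adult, with ratios of adult to neonatal reads from 0.812 to 1.23 and intervals that excluded 1 in 4 of the 9, so the common direction of the 9 rests on the library factors. The ratios among the 9 regions do not depend on them.

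**Figure D4:**
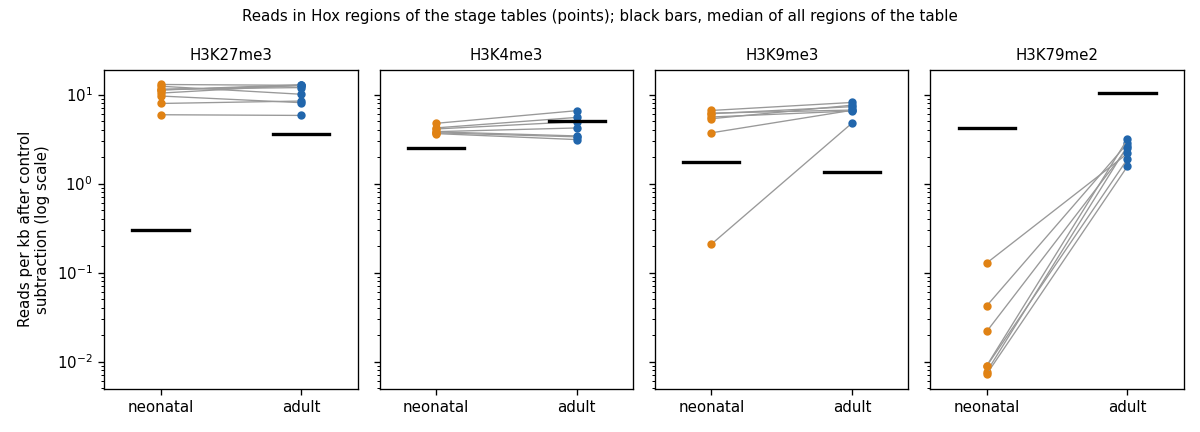
Reads per kb after control subtraction (log scale) in the Hox regions of the 4 stage tables, with neonatal and adult values of a region joined by a line and the median of all regions of the table as a black bar. H3K27me3 lies above the table median at both stages, H3K4me3 lies between 3.12 and 6.59 reads per kb, and H3K79me2 lies below both medians.

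H3K4me3 reads were sparser and followed the same pattern. All 7 Hox regions of the H3K4me3 table were lower in the adult after scaling, against 45.6% of its 10394 regions and 60.6% of the 7433 regions above the floor at both stages. Density was 3.65 to 4.75 reads per kb in neonatal cells, above the table median of 2.5, and 3.12 to 6.59 in adult cells, around the median of 5. The 129.8 kb Hoxa region held 617 neonatal and 856 adult reads and had a 1.21-fold higher neonatal value (1.09 to 1.35), the smallest of the 7. The 111 kb Hoxb region held 469 and 615 reads and differed 1.28-fold (1.14 to 1.45). The 45.8 kb Hoxb region, most of which lies outside the window, held 167 and 143 reads. It had the largest difference, 1.97-fold (1.56 to 2.48). The intervals of the 2 Hoxb regions on either side of the open stretch do not overlap, but they leave out the counting error of the subtracted control. The H3K27me3 values of these regions stood in the opposite order with overlapping intervals.

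The Hoxc region of 138 kb held 529 neonatal and 582 adult H3K4me3 reads and differed 1.53-fold (1.36 to 1.72). The 112.2 kb Hoxd region held 461 and 556 reads and differed 1.396-fold (1.23 to 1.58). The 2 end regions of 23.6 kb in Hoxa and 16.4 kb in Hoxb held 90 and 81, and 61 and 55 reads, and both differed 1.87-fold (1.37 to 2.56 and 1.28 to 2.74). Before scaling 3 of the 7 regions were lower and 4 higher in the adult, with ratios of adult to neonatal reads from 0.856 to 1.39 and intervals that excluded 1 in 3 of the 7. The regions lower without the factors were the 45.8 kb Hoxb region and the 2 end regions, while the large regions of the 4 clusters held more adult reads. Adult H3K4me3 islands covered less of these clusters although the large regions held more adult reads before scaling. After scaling all 7 regions were lower in the adult. The part of the caller's background in the smaller cover was not tested.

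**Figure D5:**
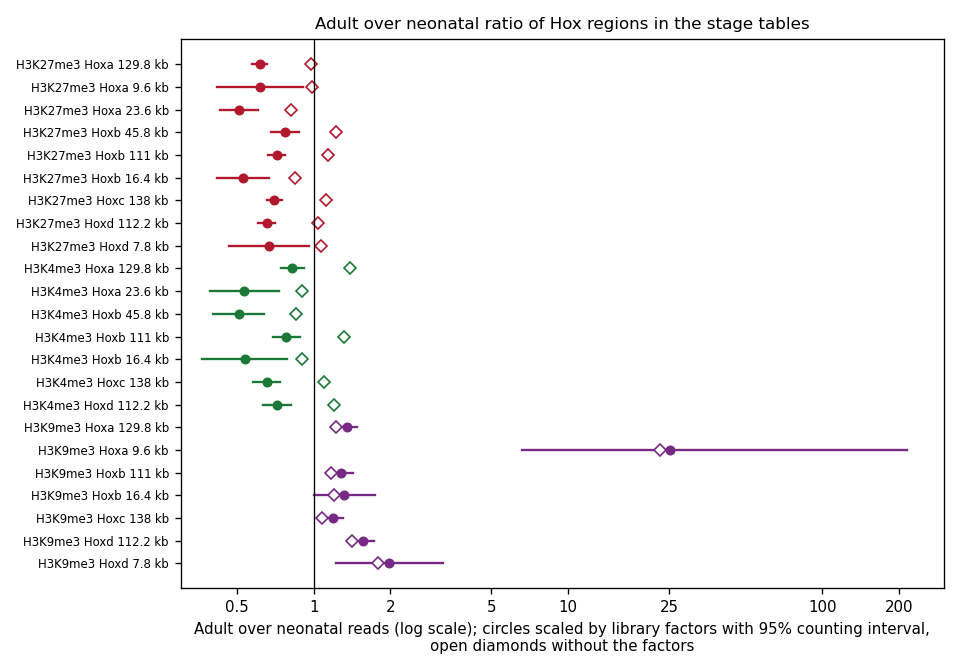
Adult over neonatal ratio of reads (log scale) in each Hox region of the stage tables for H3K27me3, H3K4me3 and H3K9me3, as circles after scaling by the library factors with the 95% counting interval and as open diamonds before scaling. H3K27me3 and H3K4me3 circles lie below 1 and their diamonds on both sides of it, while H3K9me3 circles and diamonds lie above 1.

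H3K9me3 showed the opposite stage difference. Its islands covered 0% of the windows in mES, 20.4% in neonatal (18.96 to 21.9) and 39.4% in adult cells (37.6 to 41.1). None of the 12141 mES islands touched a window. Between neonatal and adult cells cover went from 19.6% to 45.0% in Hoxa, from 20% to 32.1% in Hoxb, from 26.6% to 48.2% in Hoxc and from 15.0% to 33.2% in Hoxd. Some 20 kb bins went the other way. In Hoxb cover fell from 53% to 35% between 0 and 20 kb and from 33% to 8% between 20 and 40 kb. The widest adult islands were one of 13.2 kb in Hoxd (chr2:74557800-74570999), which ranked 39 of 14921, and one of 10.8 kb in Hoxa (chr6:52211200-52221999), which ranked 58. The widest neonatal one measured 6.0 kb, in Hoxb. Of the 36 neonatal islands 28 overlapped an adult one, against 17.3% of all neonatal H3K9me3 islands, and 30 of the 64 adult islands met a neonatal island, against 9.51%. These shares of the lists are not matched for the local cover. Shared bases came to 57 kb. They made up 47.4% of the neonatal bases, beside an adult cover of 39.4%, and 24.5% of the adult bases, beside a neonatal cover of 20.4%.

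The H3K9me3 islands lay within the H3K27me3 domain too. All 36 neonatal islands overlapped H3K27me3, against 28.4% of the list, and 62 of 64 adult islands did, against 25.8%. In bases 93.7% of neonatal and 89.0% of adult H3K9me3 was inside H3K27me3, beside H3K27me3 covers of 81.4% and 73.7% of the windows. The shares of the lists are not matched for this local cover. Adult H3K9me3 and H3K4me3 shared 67.2 kb, which is 48.2% of the H3K4me3 and 28.9% of the H3K9me3 bases. Adult H3K9me3 covered 39.4% and adult H3K4me3 23.6% of the windows. Signal of 3 antibodies in the same stretches was measured in separate libraries, and cross-reaction between antibodies was not tested.

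All 7 Hox regions of the H3K9me3 table were higher in the adult, against 49.4% of its 9686 regions. The 45.8 kb Hoxb and the 23.6 kb Hoxa region are not among them. The 7 were higher also before scaling, when the counting interval excluded 1 in 5 of the 7. It held 1 in the 138 kb Hoxc and the 16.4 kb Hoxb region. The neonatal and adult factors were 0.954 and 1.05. The 129.8 kb Hoxa region held 861 neonatal and 1059 adult reads, 1.35-fold higher in the adult (1.23 to 1.48). The 111 kb Hoxb region held 622 and 726 reads (1.28-fold, 1.15 to 1.43). The 16.4 kb Hoxb region held 100 and 120 reads (1.32-fold, 1.00 to 1.74). These 3 values have overlapping intervals.

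The Hoxc region held 854 neonatal and 925 adult H3K9me3 reads, a 1.19-fold higher adult value (1.08 to 1.31) and the smallest of the 7. The 112.2 kb Hoxd region held 601 and 853 reads, 1.56-fold higher in the adult (1.404 to 1.73), and the 7.8 kb Hoxd region 29 and 52 reads (1.97-fold, 1.23 to 3.22). The interval of the 112.2 kb Hoxd region thus lay above that of Hoxc, with the counting error of the subtracted control left out. The 9.6 kb Hoxa region stood apart, with 2 neonatal and 46 adult reads left after control subtraction. Its ratio was 25.3-fold with a wide interval of 6.61 to 215. In the same region H3K27me3 had been nearly equal in reads, and no neonatal and 1 adult H3K9me3 island lay in it.

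H3K79me2, the mark of transcribed genes, was nearly absent. There was no neonatal island in any window. Adult cells had 5 islands of 1.0 to 3.8 kb, 4 in Hoxb and 1 in Hoxc (chr15:102799000-102799999), that covered 1.90% of the windows and ranked between 23343 and 57595 of 60601 by width. The Hoxb islands lay at chr11:96059800-96062199, chr11:96174400-96178199, chr11:96179400-96181399 and chr11:96186600-96188599. All 5 overlapped H3K27me3 and H3K4me3 islands, against 4.89% and 21.1% of all adult H3K79me2 islands. In the windows these 2 marks covered 73.7% and 23.6% of the bases in adult cells. In mES cells there were 2 islands, 1 in Hoxa and 1 in Hoxb, neither shared with the adult.

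In the authors' deposited table the folds of the 7 Hox regions for H3K79me2 were all above 4 toward the adult, as were those of 38.1% of its 12641 regions, but these folds rest on the floor. Each region stood at the floor of 1 read in neonatal cells, as did 31.3% of the table, and none of the 7 was above the floor at both stages. Adult density was 1.57 to 3.17 reads per kb, below the table median of 10.5. The highest was the 111 kb Hoxb region with 352 reads, which contains 3 of the 4 adult Hoxb islands. The lowest was the 138 kb Hoxc region with 216 reads. Set against 3 neonatal reads per region, the adult values were 58.7-fold higher in the 111 kb Hoxb region. They were 57.5-fold higher in the 129.8 kb Hoxa region, which held 345 adult reads and no island. The floor follows control subtraction, so 3 reads is a chosen value and no upper limit, and these ratios are no lower bounds. The others had ratios of 36.0 (Hoxc), 35.4 (112.2 kb of Hoxd), 19.2 (45.8 kb of Hoxb), 11.2 (23.6 kb of Hoxa) and 2.84 (7.8 kb of Hoxd). Against 3 reads 6 of the 7 were at least 4-fold higher, and the 7.8 kb Hoxd region with 17 adult reads was not. No adult island lay in 4 of the 7 regions.

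The tables against mES cells place the stages beside the stem cells, and they share the cardiomyocyte libraries with the stage tables. For H3K27me3 the authors' deposited tables list 9 Hox regions against neonatal cells, and all 9 were higher in neonatal than in mES cells, against 49% of that table, by 1.42 to 1.92 on the log2 scale. Against adult cells they list 7, all higher in the adult (50.7% of the table), by 0.19 to 0.88. mES islands nevertheless covered more of the windows than those of either stage. For H3K27me3 the stage fold and the fold through mES cells differed by 0.61 on the log2 scale, as given further on. Adult folds against mES cells of 0.19 to 0.38 lie below that amount, and the part of scaling in their direction was not tested. For H3K4me3 7 of 8 regions were higher in neonatal cells (49.6% of the table) and 6 of 8 in adult cells (49.6%). The exceptions were the 7.8 kb Hoxd region, which was lower by 1.13 in neonatal and by 0.76 in adult cells, and the 9.6 kb Hoxa region, lower by 1.32 in adult cells.

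H3K9me3 was also higher at both stages than in mES cells. In the authors' deposited tables all 8 Hox regions were higher in neonatal (50.3% of the table) and 9 of 9 in adult cells (51.2%), by 1.54 to 2.72 and by 2.42 to 3.25 on the log2 scale. For H3K79me2 no Hox region is listed between mES and neonatal cells. Between mES and adult cells 7 of 7 were higher in the adult (56.2% of the table), by 3.05 to 7.43 on that scale. Each of these folds lay 0.03 below the size of the stage fold of the same region, whose neonatal value is at the floor, so they depend on the floor too and are no bounds.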

How the data were processed

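Chromatin immunoprecipitation libraries of 4 marks at 2 stages were used, with groups taken from the sample titles. Reads were aligned with Bowtie 0.12.8 to mm9 and regions were called with SICER 1.1 and MACS 1.4.2 and compared with DiffBind 1.2.0, per the submitters' processing notes, which name these tools without their order or settings. Lists were called per sample. Regions of both callers have a score, as the authors deposited it, used only to rank regions within a list. The 12 comparison tables, as deposited by the authors, give a log2 value of normalised reads per library, a fold as the difference of those log2 values, and a false discovery rate (a q-value under 0.01). Total depth is not stated by any source used here. In the stage tables the largest region took 58.9% of the neonatal H3K27me3 and 58.7% of the neonatal H3K9me3 table reads.

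Unlogged values were multiples of the lowest value of the column, within 0.01, in 100% of cases, and the multiples were taken as reads. Cover was counted in bases, and overlaps needed 1 bp. Shares have 95% Wilson intervals. Read ratios have exact conditional binomial intervals of 95%. The Wilson intervals treat units of 200 bp as independent draws. The read ratio intervals treat reads left after control subtraction as counts, so they leave out the control's own counting error and are too narrow. Neither kind measures variation between libraries. PCR copies carry no molecular identifier and cannot be separated from independent molecules. No p-value was computed, since each group is 1 library. The 3 input libraries were not used on their own. A neonatal input titled for H3K4me3 stands beside a further neonatal input and an adult input. Its part in the H3K4me3 stage difference was not tested. mES cells are no samples of the series, so from their tables only folds and false discovery rates were used; 8 columns of mES values and 8 of cardiomyocyte values in these tables were left out. Coordinates are mm9 as deposited, with the end base included. With no mm9 gene positions used, the cells were not checked against cardiomyocyte, fibroblast or endothelial markers.

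The text names every stage table region in the windows, the widest island of a list and genes at cluster ends. The windows, lists and alternatives were chosen with earlier results of these data known. Alternatives were MACS regions, equal list lengths, higher scores, wider windows, other scaling, the floor, the overlap and the false discovery rate. The read ratio code was tested on simulated data. Python 3.11.15, pandas 2.3.3, NumPy 2.4.6, SciPy 1.17.1 and matplotlib 3.10.9 were used.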

Additional observations from a re-analysis of the deposited data

How the results depend on the processing

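MACS regions covered almost none of the windows, with 1.45% for neonatal and 0.0729% for adult H3K27me3, 0.717% and 0% for H3K4me3, and 0.0578% and 0% for both marks together; the cause was not tested, and the cover values hold for SICER islands only. Windows widened by 50 kb on each side held 61.2% and 55.1% H3K27me3, 28.1% and 15.2% H3K4me3, and 26.1% and 13.4% of both, because the flanks carry fewer islands. Islands above their list's median score gave 33.1% and 16.3% for H3K4me3 and 31.1% and 14.8% for both marks, since fewer islands were counted, and left H3K27me3 cover within its interval at 80.3% and 72.4%. In each of these settings the neonatal value stayed above the adult one for the 3 covers. Equal list lengths moved no cover out of its interval. The neonatal lists were the shorter ones and stayed whole, so only adult covers could have moved. Without the library factors, an alternative chosen after seeing the data, 5 H3K27me3 regions were higher and 4 lower in the adult in place of 0 and 9, and 4 H3K4me3 regions were higher and 3 lower in place of 0 and 7. Centring the folds, leaving out regions at the floor, a larger overlap and a false discovery rate of 1e-05 left 7 or 9 H3K27me3 and 5 or 7 H3K4me3 regions lower in the adult. None of these settings could have made a region higher there. The medians used for centring were negative (-2.91 for H3K27me3 and -0.738 for H3K4me3), and the other settings only leave regions out. No paired analysis was possible because each group has 1 library and no test was made. Regions of 7.8 to 23.6 kb held few reads, so their ratios are the least precise.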

Other observations

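The stage fold of a Hox region and the fold obtained by subtracting its 2 mES comparisons differed by the same amount in every region of a mark. For H3K27me3 this amount was 0.61 on the log2 scale in 7 of 7 regions, which is as large as the median stage fold of 0.61 over the 9 regions. Through the mES tables the 111 kb Hoxb region was lower in the adult by 1.09 on the log2 scale in place of 0.48. For H3K4me3 the amount was 0.12 in 6 regions and for H3K9me3 it was -0.06 in 6 regions. These tables share libraries, and the directions of the regions were the same by both routes. The amount had the sign of every stage fold of its mark, so it could not have reversed a direction.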
